A study of Mus musculus with 4 samples.

Results

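The 10 genes described here carry the insulin, growth hormone (GH) and insulin-like growth factor (IGF) signals of the liver: the insulin receptor (Insr), its adaptors Irs1 and Irs2, the GH receptor (Ghr), the prolactin receptor (Prlr), the feedback inhibitor Socs2, the hormone Igf1, and its carriers Igfals, Igfbp1 and Igfbp2. They were chosen by symbol, and each symbol was mapped to its Entrez identifier among the 27179 genes of the count files. All 10 passed the filter on low counts. RNA labelled as liver was sequenced in bulk from mice fasted overnight with free access to water (2 libraries). The non-fasted mice had free access to food and water (2 libraries). Both groups are labelled as male, wild type and C57BL/6 (C57BL/6J in the treatment protocol). The mice are described as matched for age, and no age is given. Groups follow the sample titles, because the treatment field reads fasted for all 4 libraries. No label ties a library to 1 mouse, so that the p-values measure the spread between libraries, which may be technical. A figure legend of the study names hepatocytes as the source of the RNA, whereas the labels give liver.

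Insulin binds Insr, which phosphorylates the adaptors Irs1 and Irs2. These recruit phosphoinositide 3-kinase, and the kinase Akt then keeps FOXO transcription factors out of the nucleus. When food is withdrawn, circulating insulin falls and FOXO factors act on genes such as Igfbp1 and those of glucose production. GH from the pituitary binds Ghr on hepatocytes, and the kinase Jak2 activates the transcription factor Stat5b. Stat5b drives Igf1 and Igfals, and also Socs2 and Cish, which dampen the same pathway. The liver is the main source of circulating Igf1, which travels in a complex with Igfbp3 and the Igfals protein, while Igfbp1 and Igfbp2 form smaller complexes.

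The total count was 13541405 and 13528015 in fasted replicates 1 and 2, against 36975921 and 36943535 in the non-fasted libraries. The library types differed in more than depth. The 14 trophoblast markers, genes of the placenta, took 6.80% and 6.86% of the non-fasted counts, while none of them exceeded 3 counts in a fasted library. All 23 placental members of the prolactin family together took 3.05% and 3.08% of the non-fasted counts and reached at most 1 count in a fasted library. The 14 hepatocyte markers took 12.9% and 13.0% of the fasted counts, against 5.19% and 5.17% of the non-fasted counts, and were present in every library. Xist, expressed from the silenced X of female cells, had 2 and 1 counts in the fasted libraries, against 25772 and 26316 in the non-fasted libraries. The Y-linked gene Ddx3y had 1265 and 1234 counts in the fasted libraries, against 1016 and 1074 in the non-fasted libraries. For the non-fasted libraries, the Xist counts are at odds with the label male, and the trophoblast markers with a label of liver alone. The part of the placental RNA in the results below was not tested. In bulk RNA, fewer cells of a type and less RNA per cell cannot be told apart.

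Since the hepatocyte markers took different shares of the counts in the 2 groups, each of the 10 genes is given on 2 scales. The first is median-of-ratios scaling, the main analysis, in which the 14 hepatocyte markers had log2 fold changes of 1.61 to 2.27 with a median of 1.77. The second divides each library by its hepatocyte markers, in which the same 14 genes had log2 fold changes of -0.16 to 0.50. Fold changes are fasted over non-fasted throughout, and adjusted p-values come from edgeR's quasi-likelihood test over all 15470 genes tested. The libraries of a group were very alike, with a common biological coefficient of variation of 0.00988. On the first scale 82.2% of all genes tested passed, 37.2% higher and 45.0% lower in the fasted libraries. On the second scale 94.8% passed, 4.62% higher and 90.2% lower, and 13 of the 14 hepatocyte markers themselves were among the genes that passed. The median log2 fold change of all genes was -0.13 on the first scale and -1.90 on the second.

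On the median-of-ratios scale 9 of the 10 genes were higher in the fasted libraries and Irs2 was lower, with a median log2 fold change of 1.83. The same 9 and 1 were called with plain total counts, where 85.6% of all genes passed, 22.9% higher and 62.7% lower. Set against the hepatocyte markers, the 10 genes spread out. Igf1, Igfbp2 and Socs2 stood above all 14 markers, Insr and Irs2 stood below all of them, and Irs1, Ghr, Prlr, Igfals and Igfbp1 lay within their range. A change of scaling shifts genes and markers alike, so these positions are the same on both scales by construction. On the hepatocyte-marker scale 5 genes were higher (Ghr, Prlr, Socs2, Igf1 and Igfbp2), 2 were lower (Insr and Irs2) and 3 did not pass (Irs1, Igfals and Igfbp1). With a larger spread assumed, a fixed coefficient of variation of 0.2, the calls on this scale came down to 2 higher (Igf1 and Igfbp2) and 1 lower (Irs2). On the first scale the values of fasted and non-fasted libraries did not overlap for any of the 10 genes, and on the second they overlapped for Igfals only. The share of all genes without overlap was not computed, and 82.2% and 94.8% of all genes passed on the 2 scales. The lack of overlap is therefore not read as a trait of these 10 genes.

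**Figure D1:**
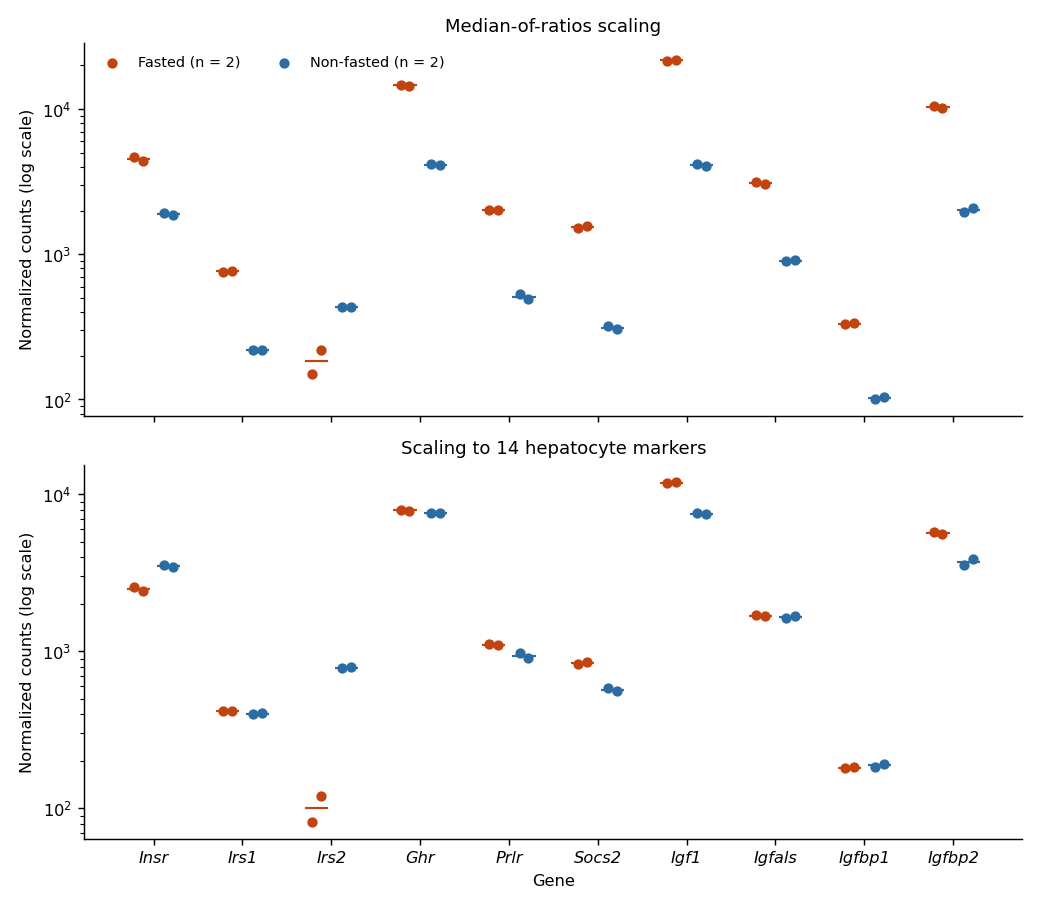
Normalized counts of the 10 genes on a log axis in the 2 fasted libraries (orange) and the 2 non-fasted libraries (blue), with median-of-ratios scaling above and scaling to the 14 hepatocyte markers below. Points are libraries and short bars are group means. Irs2 is the only gene with lower points in the fasted group on both scales together with a wide gap between its fasted libraries, and Igf1 and Igfbp2 keep a clear rise on both.

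**Figure D2:**
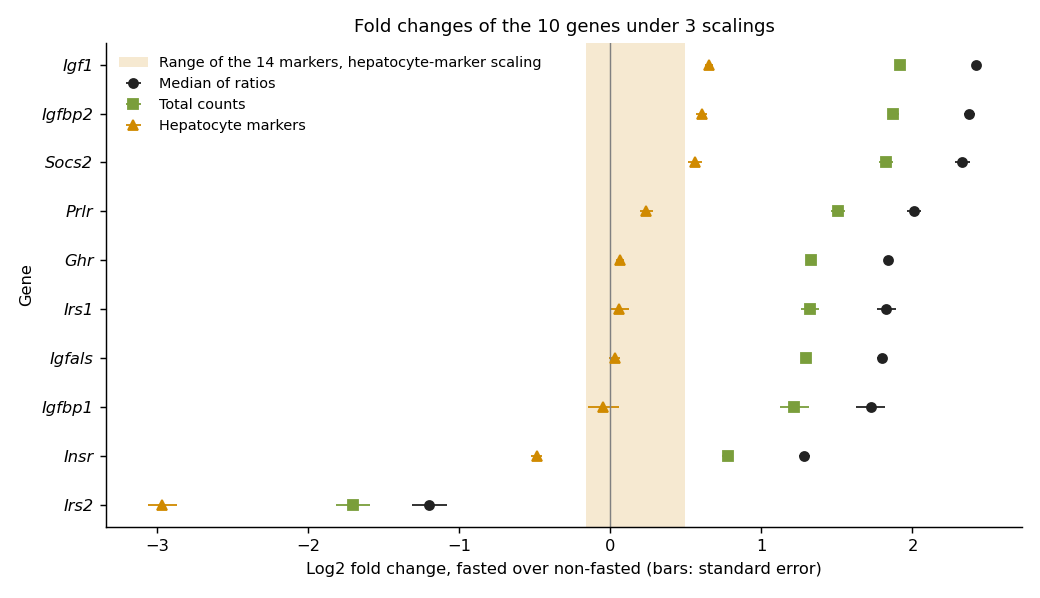
Log2 fold changes, fasted over non-fasted, of the 10 genes under median-of-ratios, total-count and hepatocyte-marker scaling, with standard errors as bars. The shaded band is the range of the 14 hepatocyte markers under their own scaling, -0.16 to 0.50. Under hepatocyte-marker scaling Igf1, Igfbp2 and Socs2 lie right of the band and Insr and Irs2 left of it.

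Promoter sequence was available from RefSeq (build GRCm38.p6) for 8 of the 10 genes, as 14 windows of the 250 bases before a transcription start. This build is older than the GRCm39 build of the counts and serves only to place the sequences. The windows are shown because insulin and GH act on these genes through short DNA elements. CAAAACAA, searched on both strands (its reverse complement is TTGTTTTG), is the core of the insulin response element known from the human IGFBP1 promoter, to which FOXO factors bind. It occurred in 3 of the 14 windows, those of Irs1, Irs2 and Igfbp1, against 2.21% of 32851 windows of all genes. In the sequences below, written 5′ to 3′ on the strand of the gene, capitals mark this motif.
Igfbp1, chr11:7197537-7197786, plus strand: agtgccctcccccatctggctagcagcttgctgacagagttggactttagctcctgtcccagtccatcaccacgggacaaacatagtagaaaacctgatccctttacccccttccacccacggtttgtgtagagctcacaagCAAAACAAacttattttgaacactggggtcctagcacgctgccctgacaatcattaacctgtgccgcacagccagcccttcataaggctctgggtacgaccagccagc
Irs2, chr8:11008930-11009179, minus strand: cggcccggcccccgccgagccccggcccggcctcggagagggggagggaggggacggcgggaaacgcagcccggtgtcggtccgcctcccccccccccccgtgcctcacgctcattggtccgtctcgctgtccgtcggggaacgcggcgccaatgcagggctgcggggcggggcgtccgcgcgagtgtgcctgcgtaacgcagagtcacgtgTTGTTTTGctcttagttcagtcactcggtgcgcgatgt
Irs1, chr1:82291440-82291689, minus strand: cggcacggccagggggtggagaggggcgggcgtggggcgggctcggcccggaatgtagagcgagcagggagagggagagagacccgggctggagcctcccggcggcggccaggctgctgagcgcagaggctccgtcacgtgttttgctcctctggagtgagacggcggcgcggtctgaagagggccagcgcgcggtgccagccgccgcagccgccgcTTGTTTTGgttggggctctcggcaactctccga
The motif lay 108 to 101 bases before the start in Igfbp1, 38 to 31 bases before it in Irs2 and 33 to 26 bases before it in Irs1. GTAAACAA, the general FOXO motif, which cannot overlap CAAAACAA base for base, was searched on both strands and occurred in 0 of the 14 windows and in 1.07% of all windows. TTCNNNGAA, the motif bound by STAT proteins, reads the same on both strands. It occurred in 3 of the 14 windows, 1 of Prlr and 2 of Igfals, against 7.02% of all windows. The second Igfals window is shown with it in capitals, 58 to 50 bases before the start.
Igfals, chr17:24877981-24878230, plus strand: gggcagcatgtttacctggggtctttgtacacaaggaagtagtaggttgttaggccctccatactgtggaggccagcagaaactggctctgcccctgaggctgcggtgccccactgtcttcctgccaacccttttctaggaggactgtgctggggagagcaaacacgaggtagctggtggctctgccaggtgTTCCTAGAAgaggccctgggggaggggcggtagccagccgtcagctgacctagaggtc
A match describes letters and was not tested for binding, and the 3 genes with CAAAACAA differed in their counts, as described next.

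Insr, the insulin receptor itself, was the receptor with the smallest rise. It had 2404 and 2261 raw counts in the fasted libraries, against 3786 and 3642 in the non-fasted libraries, which were sequenced more deeply. After median-of-ratios scaling these became 4549 ± 190 normalized counts in the fasted group and 1904 ± 49.2 in the non-fasted group (SD, n = 2 each). The log2 fold change was 1.28 (SE 0.037, adjusted p = 2.0e-09 by edgeR). Insr was thus above its non-fasted level on this scale, yet below every hepatocyte marker. Scaled to those markers it was 2485 ± 108 in the fasted group and 3486 ± 72.8 in the non-fasted group, a log2 fold change of -0.49 (SE 0.035, adjusted p = 2.8e-09 by edgeR).

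The 2 adaptors of the receptor parted. Irs1 had 390 and 394 counts in the fasted libraries, against 428 and 427 in the non-fasted libraries. Its libraries were nearly identical within each group, and the groups lay apart on the median-of-ratios scale, with a log2 fold change of 1.83 (SE 0.060, adjusted p = 4.8e-09 by edgeR). Scaled to the hepatocyte markers Irs1 was 418 ± 2.90 in the fasted group and 401 ± 1.96 in the non-fasted group, which did not pass (log2 fold change 0.06, SE 0.063, adjusted p = 0.428 by edgeR). Irs1 thus lay within the range of the hepatocyte markers.

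Irs2, the adaptor whose liver transcript is known to rise when insulin falls, had 77 and 112 counts in the fasted libraries, against 840 and 841 in the non-fasted libraries. It was the only one of the 10 genes lower in the fasted group on the median-of-ratios scale, with 184 ± 48.6 normalized counts in the fasted group and 431 ± 1.04 in the non-fasted group (SD, n = 2 each). The log2 fold change was -1.20 (SE 0.119, adjusted p = 1.4e-05 by edgeR), and -2.97 relative to hepatocyte markers (SE 0.096, adjusted p = 1.3e-13 by edgeR). The fasted libraries disagreed more for Irs2 than for any other of the 10 genes. Without fasted replicate 1 the log2 fold change was -0.92 (adjusted p = 0.00285), and without fasted replicate 2 it was -1.46 (adjusted p = 4.8e-04, both by edgeR). Within a library, the ratio of Irs1 to Irs2 counts was 5.06 and 3.52 in the fasted libraries, against 0.510 and 0.508 in the non-fasted libraries. Such a ratio does not depend on any scaling.

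Ghr, the receptor through which GH acts on hepatocytes, had 7516 and 7411 counts in the fasted libraries, against 8155 and 8050 in the non-fasted libraries. Its normalized counts were 14558 ± 120 in the fasted group and 4154 ± 31.5 in the non-fasted group, and they did not overlap (log2 fold change 1.84, SE 0.025, adjusted p = 1.8e-11 by edgeR). Against the hepatocyte markers the difference was small, a log2 fold change of 0.06 (SE 0.028, adjusted p = 0.0398 by edgeR). That call was lost on leaving out either fasted library or non-fasted replicate 2, whereas the other 6 calls on this scale held with each library left out. Within a library, Ghr stood at 3.13 and 3.28 counts per Insr count in the fasted libraries, against 2.15 and 2.21 in the non-fasted libraries.

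Prlr, the receptor of prolactin and of placental lactogens, lies on chromosome 15 as Ghr does, with 35 protein-coding genes between them in the RefSeq order. It had 1044 and 1031 counts in the fasted libraries, against 1041 and 956 in the non-fasted libraries. The 2 receptors moved nearly alike, Prlr slightly more. Its log2 fold change was 2.01 (SE 0.047, adjusted p = 4.7e-10 by edgeR) on the median-of-ratios scale and 0.24 (SE 0.044, adjusted p = 1.1e-04 by edgeR) relative to hepatocyte markers. The ratio of Ghr to Prlr was 7.20 and 7.19 in the fasted libraries, against 7.83 and 8.42 in the non-fasted libraries. Prl3b1, placental lactogen II and a ligand of Prlr, had 1 and 0 counts in the fasted libraries, against 371326 and 374066 in the non-fasted libraries. Prl3b1 is also 1 of the trophoblast markers. It passed the filter on low counts through the non-fasted libraries, so its direction was fixed and is no result.

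Socs2, which is induced by Stat5b and shuts down GH signalling, had 775 and 804 counts in the fasted libraries, against 623 and 593 in the non-fasted libraries. It was thus higher in the fasted libraries even before any correction for depth. Normalized counts were 1540 ± 42.6 in the fasted group and 312 ± 10.4 in the non-fasted group (log2 fold change 2.33, SE 0.048, adjusted p = 2.0e-10 by edgeR). Socs2 still stood higher against the hepatocyte markers, by a log2 fold change of 0.56 (SE 0.049, adjusted p = 3.0e-08 by edgeR), above all 14 markers. The ratio of Socs2 to Ghr was 0.103 and 0.108 in the fasted libraries, against 0.0764 and 0.0737 in the non-fasted libraries.

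Igf1, the hormone that Ghr and Stat5b induce, had 11013 and 11222 counts in the fasted libraries, against 8151 and 7899 in the non-fasted libraries. It showed the largest rise of the 10 genes on all 3 scalings drawn in the plot of fold changes. Its normalized counts were 21685 ± 325 in the fasted group and 4114 ± 84.8 in the non-fasted group, a log2 fold change of 2.42 (SE 0.029, adjusted p = 7.4e-12 by edgeR). Relative to hepatocyte markers it was 11844 ± 154 in the fasted group and 7532 ± 118 in the non-fasted group, a log2 fold change of 0.65 (SE 0.028, adjusted p = 3.5e-12 by edgeR). Hepatic Igf1 transcript is known to fall in fasted rodents, whereas here it was higher in both fasted libraries. The ratio of Igf1 to Ghr was 1.47 and 1.51 in the fasted libraries, against 0.9995 and 0.981 in the non-fasted libraries.

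Igfals, which encodes the acid-labile subunit that stabilises the large Igf1 complex, had 1604 and 1569 counts in the fasted libraries, against 1756 and 1777 in the non-fasted libraries. Its median-of-ratios log2 fold change was 1.80 (SE 0.031, adjusted p = 6.8e-11 by edgeR). Relative to hepatocyte markers it was 0.03 (SE 0.034, adjusted p = 0.442 by edgeR), and the values of the groups overlapped. Igfals is a Stat5b target like Igf1, but only Igf1 stood above the markers. The ratio of Igf1 to Igfals was 6.87 and 7.15 in the fasted libraries, against 4.64 and 4.45 in the non-fasted libraries.

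Igfbp1, a carrier that FOXO factors induce and insulin represses, had 170 and 171 counts in the fasted libraries, against 196 and 204 in the non-fasted libraries. Its normalized counts were 333 ± 1.94 in the fasted group and 103 ± 3.06 in the non-fasted group (log2 fold change 1.72, SE 0.099, adjusted p = 2.7e-07 by edgeR). It did not pass against the hepatocyte markers (log2 fold change -0.05, SE 0.104, adjusted p = 0.663 by edgeR). Of the 3 genes whose windows hold CAAAACAA, Irs1 and Igfbp1 thus lay within the range of the hepatocyte markers and Irs2 lay far below them.

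Igfbp2, the second small carrier, had 5366 and 5219 counts in the fasted libraries, against 3813 and 4081 in the non-fasted libraries. Its log2 fold change was 2.38 (SE 0.037, adjusted p = 3.2e-11 by edgeR) on the median-of-ratios scale. Relative to hepatocyte markers it was 0.61 (SE 0.036, adjusted p = 2.9e-10 by edgeR), second to Igf1 among the 10 genes. The ratio of Igfbp2 to Igfbp1 was 31.6 and 30.5 in the fasted libraries, against 19.5 and 20.0 in the non-fasted libraries.

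Most other genes of the IGF system were near 0 in the fasted libraries or lower there. Of 16 further ligands, receptors, binding proteins and proteases, 15 were tested. Over all genes tested, 45.0% were lower on the median-of-ratios scale and 90.2% relative to hepatocyte markers. Igfbp4 was higher in the fasted libraries and the other 14 were lower, on both scales, with median log2 fold changes of -4.17 and, relative to hepatocyte markers, -5.93. These are descriptions only, because several of the 14, such as Pappa2, Pappa, Igf2bp1, Igf2bp3, Stc1 and Stc2, passed the filter on low counts through the non-fasted libraries and had to be lower. Igfbp4, a carrier made by hepatocytes, had 13873 and 13499 counts in the fasted libraries, against 11856 and 11790 in the non-fasted libraries. Its log2 fold change was 2.16 and, relative to hepatocyte markers, 0.39, within the range of those markers (-0.16 to 0.50). Igf2, the fetal and placental IGF, had 11 and 10 counts in the fasted libraries, against 47349 and 47596 in the non-fasted libraries. Pappa2, a protease that cleaves IGF binding proteins and is abundant in placenta, had 0 counts in both fasted libraries, against 91312 and 91383 in the non-fasted libraries, at least 16007-fold lower on the median-of-ratios scale against a floor of 3 counts over the group. Igf2bp1, an RNA-binding protein of fetal tissue, had 0 counts in both fasted libraries, against 1115 and 1168 in the non-fasted libraries, at least 200-fold lower. The RNA-binding protein Igf2bp3 had 3 and 7 counts in the fasted libraries, against 547 and 627 in the non-fasted libraries. The trophoblast markers (6.80% and 6.86% of the non-fasted counts, at most 3 counts per gene in a fasted library) moved with these genes. Decidual stroma markers took 0.476% and 0.480% of the non-fasted counts, against 0.0027% and 0.0026% of the fasted counts, although 1 of them, Bmp2, was higher. Stellate cell and fibroblast markers took 0.289% and 0.290%, against 0.0213% and 0.0193%, with 2 of 7 higher on the median-of-ratios scale. The part of any of these markers in the result was not tested.

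**Figure D3:**
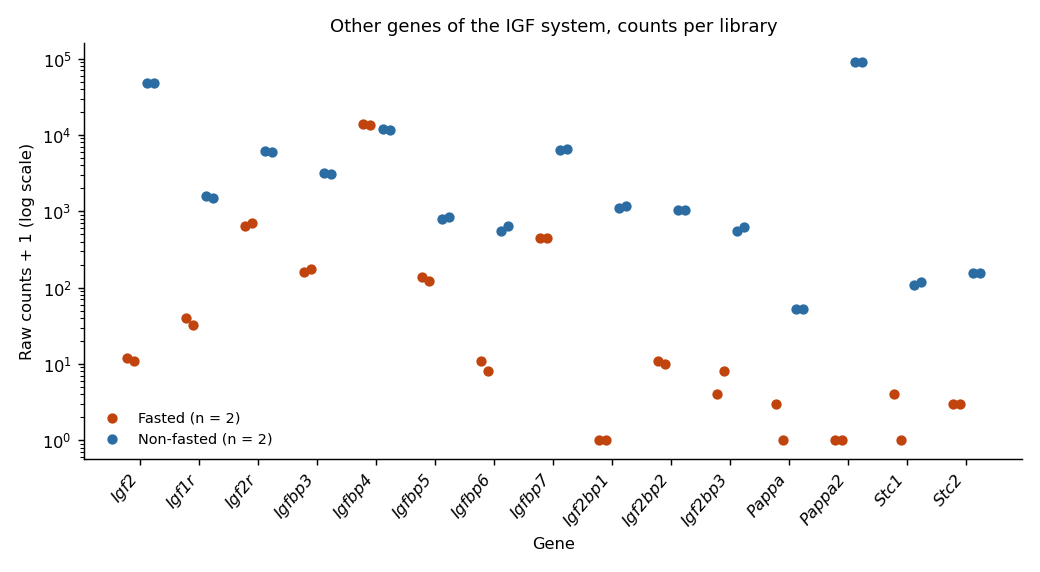
Raw counts plus 1 on a log axis of the 15 tested IGF system genes outside the 10, in the 2 fasted libraries (orange) and the 2 non-fasted libraries (blue), not corrected for depth. Igfbp4 is the only gene with higher points in the fasted libraries, and Igf2bp1 and Pappa2 have 0 counts there.

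Igf1r, the receptor of Igf1, had 39 and 31 counts in the fasted libraries, against 1577 and 1488 in the non-fasted libraries. Its log2 fold change was -3.50, and -5.26 relative to hepatocyte markers. Counted within a library, Insr outnumbered Igf1r by more in the fasted group, with 61.6 and 72.9 Insr counts per Igf1r count, against 2.40 and 2.45 in the non-fasted libraries. Igfbp3, the carrier of the large complex, had 160 and 174 counts in the fasted libraries, against 3151 and 3094 in the non-fasted libraries. Igfbp3 and Igfbp1 are neighbours on chromosome 11 with 0 protein-coding genes between them, and they moved apart. The ratio of Igfbp1 to Igfbp3 was 1.06 and 0.983 in the fasted libraries, against 0.0622 and 0.0659 in the non-fasted libraries. Igfbp2 and Igfbp5 are likewise neighbours, on chromosome 1, with a ratio of 38.9 and 42.4 in the fasted libraries, against 4.78 and 4.85 in the non-fasted libraries. Igf1 stood at 1001 and 1122 counts per Igf2 count in the fasted libraries, against 0.172 and 0.166 in the non-fasted libraries. In all 12 pairs of genes computed the groups did not overlap. The pairs were chosen after the values had been seen and are given without a test, since 2 libraries against 2 cannot go below an exact two-sided p of 0.333.

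**Figure D4:**
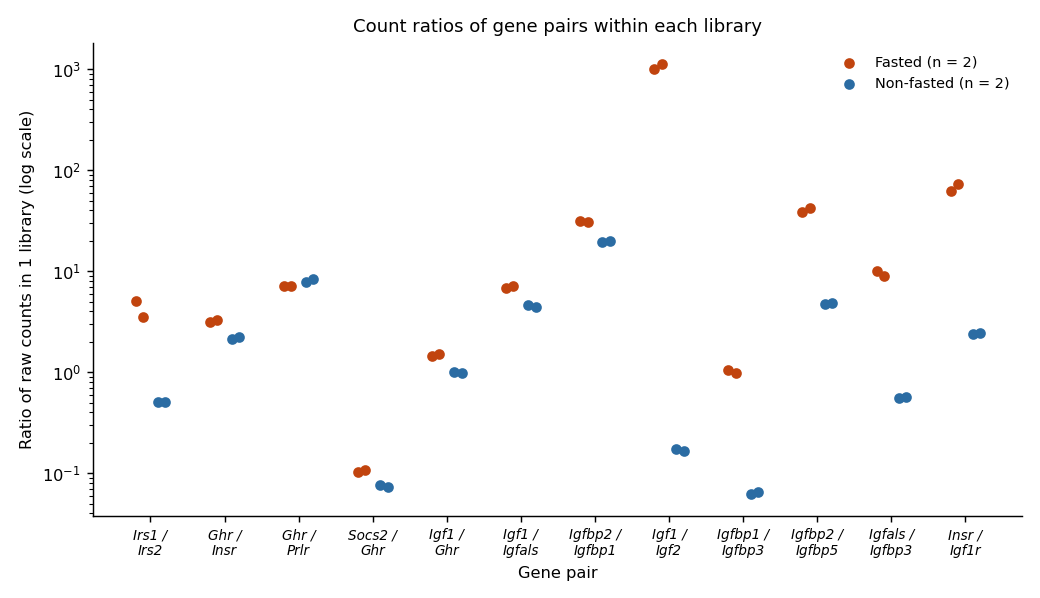
Ratio of the raw counts of 12 gene pairs within each library, on a log axis, in the 2 fasted libraries (orange) and the 2 non-fasted libraries (blue). The ratio of Igf1 to Igf2 differs most, at 1001 and 1122 in the fasted libraries and 0.172 and 0.166 in the non-fasted libraries, while Ghr to Prlr differs least.

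Among 24 genes of insulin signalling below the adaptors, 7 were higher, 13 lower and 4 did not pass on the median-of-ratios scale, with a median log2 fold change of -0.44. The shares over all genes tested were 37.2% higher and 45.0% lower on that scale, and 4.62% and 90.2% relative to hepatocyte markers. All 24 were lower against the hepatocyte markers, with a median of -2.21, near the median of all genes tested (-1.90). Among the larger falls were Foxo4, with 545 and 516 counts in the fasted libraries against 50362 and 50408 in the non-fasted libraries, Pik3r3 (log2 fold change -3.73) and Sh2b2 (-3.00). Of 15 inhibitors of insulin signalling, 7 were higher, 7 were lower and 1 did not pass. Socs1, among the lower inhibitors, passed the filter on low counts through the non-fasted libraries, so its direction was fixed. Grb10, an imprinted adaptor that inhibits Insr, fell most, with 59 and 76 counts in the fasted libraries against 2926 and 2862 in the non-fasted libraries, or -3.47 on the log2 scale. Its liver relative Grb14 moved the other way, with a log2 fold change of 2.11, and it alone of the 15 was higher relative to hepatocyte markers (0.34), a call lost with a coefficient of variation of 0.2 (adjusted p = 0.272 by edgeR). Enpp1, which inhibits Insr, had a log2 fold change of 1.76 and did not pass relative to hepatocyte markers (-0.0092, adjusted p = 0.924 by edgeR).

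Of the 15 genes of GH and prolactin signalling, 6 were higher and 9 lower, against 37.2% and 45.0% of all genes tested. Relative to hepatocyte markers 2 were higher and 13 lower, where 90.2% of all genes tested were lower. The 2 higher genes were Cish, a feedback inhibitor induced by Stat5b, and the transcription factor Onecut1. Cish had 361 and 396 counts in the fasted libraries, against 276 and 297 in the non-fasted libraries, with log2 fold changes of 2.35 and, relative to hepatocyte markers, 0.58. Onecut1 had log2 fold changes of 2.34 and 0.56. Both hepatocyte-marker calls were lost with a coefficient of variation of 0.2 (adjusted p = 0.0597 for Cish and 0.0707 for Onecut1 by edgeR), as was that of Socs2 (0.0661). These values lie beside those of Socs2, 2.33 and 0.56, the other Stat5b target with feedback function. Socs1 had 2 and 2 counts in the fasted libraries, against 38 and 48 in the non-fasted libraries. Cux2 had 0 and 2 counts in the fasted libraries, against 43 and 41 in the non-fasted libraries. Both passed the filter on low counts through the non-fasted libraries, so their direction was fixed and is no result. Lifr, the gene of this list with the highest mean count, had a log2 fold change of -0.06 and, relative to hepatocyte markers, -1.83. The first of these calls was lost without fasted replicate 1 (-0.02, adjusted p = 0.449) and without fasted replicate 2 (-0.04, adjusted p = 0.281, both by edgeR).

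Genes that GH drives in male liver had a median close to that of the hepatocyte markers. On the median-of-ratios scale 19 of 20 were higher and Cspg5 did not pass (log2 fold change 0.36, adjusted p = 0.165 by edgeR), with a list median of 1.74. Relative to hepatocyte markers 8 were higher, 8 lower and 4 did not pass, with a median of -0.04. Over all genes tested, 37.2% were higher on the first scale, and on the second 4.62% were higher and 90.2% lower. Mup3, a major urinary protein, had 144324 and 145649 counts in the fasted libraries, against 161153 and 160531 in the non-fasted libraries, a log2 fold change of 1.80 and, relative to hepatocyte markers, 0.03. Elovl3, a fatty acid elongase, had the largest rise, 2.46 and 0.69. Cyp4a12b (2.38 and 0.61), Ugt2b38 (2.38 and 0.61) and Mup1 (2.26 and 0.49) came next. With a coefficient of variation of 0.2 the hepatocyte-marker calls of Mup1 and Mup3 were lost (adjusted p = 0.104 and 0.918 by edgeR). Mup and Cyp genes have near-identical copies, and how the authors' counting treated shared reads is not given in the sources used here. Of 20 female-biased genes only 7 had enough counts to be tested, 3 higher and 4 lower. On the hepatocyte-marker scale 2 were higher, 4 lower and 1 not past the test. Cux2, among the lower genes, passed the filter through the non-fasted libraries, so its direction was fixed. Cyp2c69, among the higher genes, had 8 and 12 counts in the fasted libraries, against 15 and 7 in the non-fasted libraries. It needed the fasted libraries, where it was high, to pass the filter, so its call is no result. Relative to hepatocyte markers it did not pass. Acot3 rose most, with 62 and 72 counts in the fasted libraries against 19 and 23 in the non-fasted libraries. Cyp17a1, a steroid hydroxylase, fell most, with 26 and 26 counts in the fasted libraries against 2785 and 2669 in the non-fasted libraries.

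The genes that insulin induces in hepatocytes were lower relative to hepatocyte markers in all 10 cases, where 90.2% of all genes tested were lower. Their median was -1.96, near that of all genes. On the median-of-ratios scale 4 were higher, 5 lower and Me1 did not pass, against 37.2% higher and 45.0% lower of all genes tested. Thrsp, a regulator of lipid synthesis, fell most, with 139 and 133 counts in the fasted libraries against 3328 and 3222 in the non-fasted libraries, and log2 fold changes of -2.64 and -4.41. Pnpla3 (-2.37) and fatty acid synthase, Fasn (-1.23), were lower on both scales. Pnpla3, with 3 and 5 counts in the fasted libraries, passed the filter through the non-fasted libraries, so its direction was fixed. Scd1 was higher on the first scale (0.57) and lower on the second (-1.20), as was Acaca (0.58 and -1.19).

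Of 12 genes that FOXO1 induces, which include Igfbp1, Irs2 and Insr, 9 were higher and 3 lower, against 37.2% and 45.0% of all genes tested. Relative to hepatocyte markers 5 were higher, 5 lower and 2 did not pass, against 4.62% higher and 90.2% lower of all genes tested. Pck1 and G6pc, enzymes of glucose production, were higher on both scales. On the first scale Pck1 kept log2 fold changes of 4.35 and 4.34 without non-fasted replicate 1 and without non-fasted replicate 2. The test gave no call for Pck1 in these fits, and why was not tested. Pck1 had 33541 and 33413 counts in the fasted libraries, against 6366 and 6295 in the non-fasted libraries, with log2 fold changes of 4.36 and, relative to hepatocyte markers, 2.59. G6pc had 4869 and 4965 counts in the fasted libraries, against 2370 and 2426 in the non-fasted libraries (2.99 and 1.22). Ppargc1a, their coactivator, had 2.18 and 0.41, Mttp had 2.01 and 0.24, and Apoc3 had 1.83 and 0.06. Of these 5 genes, the hepatocyte-marker calls of Ppargc1a, Mttp and Apoc3 were lost with a coefficient of variation of 0.2 (adjusted p = 0.227, 0.439 and 0.846 by edgeR). The 3 lower genes were Irs2, Pdk4 (-0.82 and -2.60) and Sesn1 (-0.49 and -2.26). Relative to hepatocyte markers Igfbp1 did not pass and Irs2 was lower, while Pck1 and G6pc were higher.

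**Figure D5:**
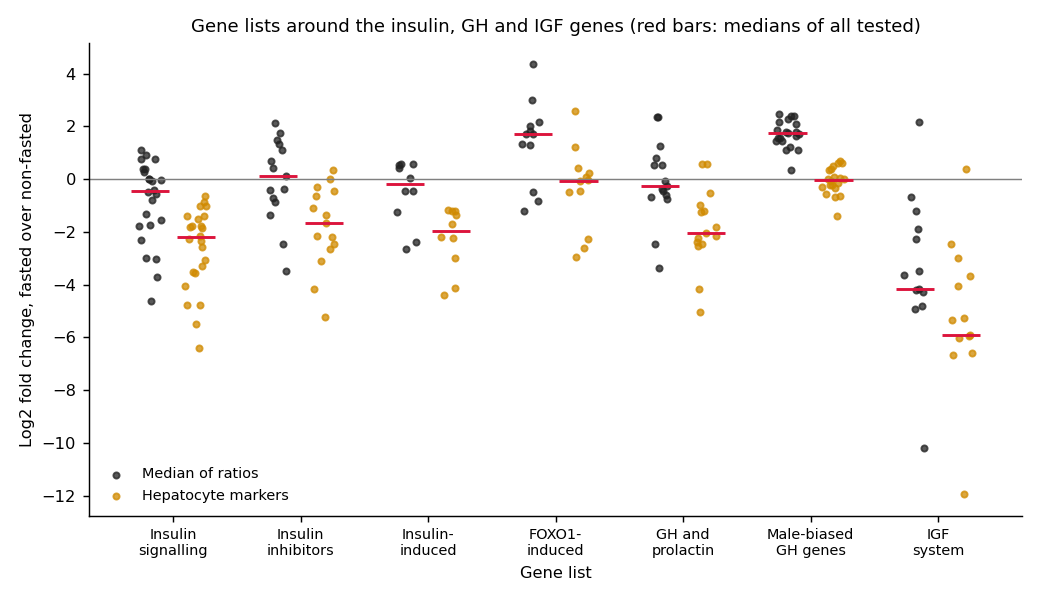
Log2 fold changes, fasted over non-fasted, of the tested genes of 7 lists under median-of-ratios scaling (black) and hepatocyte-marker scaling (orange). Points are genes and red bars are medians over all tested genes of a list, while genes with 0 counts in both fasted libraries are not drawn as points. The male-biased GH genes sit at medians of 1.74 and -0.04, and the IGF system sits at -4.17 and -5.93.

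The hormones of the axis that are made outside the liver were nearly silent, with 1 exception. Ins1, Ins2, Gh and Gcg had 0 counts in all 4 libraries. Prl, the pituitary hormone that also binds Prlr, had 0 counts in both fasted libraries, against 9 and 6 in the non-fasted libraries. Ghrh, the releasing hormone of GH, which the placenta also makes, had 0 counts in both fasted libraries, against 1709 and 1757 in the non-fasted libraries, at least 304-fold lower. The only other of the 11 genes tested, Insl6, had 2 and 1 counts in the fasted libraries, against 26 and 32 in the non-fasted libraries. Its log2 fold change was -1.85 without fasted replicate 2. Ghrh and Insl6 passed the filter through the non-fasted libraries, so their direction was fixed and is no result. Of the placental prolactin family 18 of 23 genes had 0 counts in both fasted libraries and none exceeded 1 count there. The 21 that were tested passed the filter through the non-fasted libraries, so their direction was fixed and is no result. Prl8a2, Prl8a8 and Prl7a2 had 0 counts in both fasted libraries, against 76510 and 78124, 69503 and 70802, and 49411 and 49103 in the non-fasted libraries. Genes of this family have close copies, so that single members are uncertain.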

How the data were processed

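Bulk RNA labelled as mouse liver was measured in 2 fasted and 2 non-fasted libraries. The authors deposited raw read counts per Entrez gene for each library, with no normalization. Trimmomatic, STAR, featureCounts, FastQC, MultiQC, DESeq2 1.32.0 and the build GRCm39 appear in the processing notes of the submitters. Strand setting and multi-mapping: not given in the sources used here. Of 27179 identifiers, 1904 had no symbol in the RefSeq table of GRCm38.p6, which served for names, gene order and promoter windows.

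The genes, lists and markers were chosen with earlier results of these data known. Counts passed filterByExpr, were put on median-of-ratios scale and went into edgeR 4.0.16 in R 4.3.3 (quasi-likelihood, two-sided, Benjamini-Hochberg over all genes tested, threshold 0.05). This follows the scaling of DESeq2, which the study names. Normalized counts are counts divided by a library's size factor. Standard errors follow from each fold change and its F value. Shares of counts carry Wilson intervals at 95% in the tables, and these and the floor of 3 counts cover counting error only. Replicates differed by more than sampling noise (chi-square per gene 1.12 in the fasted group over 13348 genes and 1.13 in the non-fasted group over 17211 genes), so they were not treated as one library deposited a second time. This does not show separate mice, since repeat preparations of one RNA could differ as much.

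Named genes are the 10 members, in each list the 4 with the largest fold change past the threshold and the one with the highest mean count, and list members against the majority where 5 or fewer; some of these are not reported here. Genes named otherwise, among them Igf1r, Igfbp3, Pdk4 and Sesn1, and the 12 gene pairs were picked with their values in view. Alternatives comprised TMM, total-count, upper-quartile and hepatocyte-marker scaling, no filter, DESeq2 1.42.0, an exact deviance, fixed coefficients of variation of 0.2 and 0.4, a replicate block and leaving out each library. Hepatocyte-marker scaling with a fixed coefficient of variation, and with each library left out, were added after seeing the data. The fit was tested on simulated counts at the size factors of the 4 libraries. Unchanged genes had the same mean in both groups, the spread was small and fixed, and few genes were changed. At a true fold of 1.2 it found 17 of 49 genes, at 1.5 it found 37 of 50, at 2 it found 40 of 49 and at 4 it found 49 of 50. None of the 14928 unchanged genes was called. This cannot speak to false calls in the real comparison, where placental RNA and the share of hepatocyte markers differed between the groups.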

Additional observations from a re-analysis of the deposited data

How the results depend on the processing

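The scaling decided the direction of some genes. The 10 genes kept 9 higher and 1 lower in the fasted libraries under TMM, total-count and upper-quartile scaling, no filter, DESeq2, the exact deviance, a coefficient of variation of 0.2 and each left-out library. Under hepatocyte-marker scaling 5 were higher and 2 lower, and with a coefficient of variation of 0.2 added to it 2 were higher and 1 lower. With a coefficient of 0.4 on the main scale 8 were higher and 0 lower, and Insr (adjusted p = 0.0768) and Irs2 (adjusted p = 0.108) were lost. Over all genes, 3550 were higher with total counts, 715 higher and 13949 lower with hepatocyte-marker scaling, 3714 higher with a coefficient of 0.2, and 1648 higher and 3691 lower with 0.4, against 5756 higher and 6965 lower in the main analysis. Hepatocyte-marker scaling left 19 genes of the pathway lists higher. Of the genes named by the rule and called in the main analysis it turned round Insr (-0.49), Acaca (-1.19) and Scd1 (-1.20). Igfbp1 (-0.048) and Enpp1 (-0.0092, and -0.0095 with the coefficient of 0.2) changed sign but did not pass, so their calls were lost rather than reversed. Upper-quartile scaling turned round Lifr (0.056). Me1 and Cspg5, which did not pass in the main analysis, were lower under hepatocyte-marker scaling (-1.71 and -1.41). Pck1 kept its log2 fold change without non-fasted replicate 1 or 2 (4.35 and 4.34). The test gave no call for it in these fits, and the cause was not tested. Deviations of equal replicate numbers were not correlated (-0.0052 over 15470 genes). With 2 libraries a group and a spread close to sampling noise, this cannot show whether replicate numbers mark a pairing. A replicate block gave 5743 higher and 6929 lower genes and left the 10 genes at 9 higher and 1 lower. Having 2 libraries a group limits every error given here.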
